A study of Homo sapiens with 3 samples.

Results

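Fatty acid synthesis, desaturation and elongation were followed through 10 genes: ACLY, ACACA and FASN, the desaturase genes SCD, FADS1, FADS2 and FADS3, and the elongase genes ELOVL1, ELOVL5 and ELOVL6. They were chosen by name, with earlier results of these data known. Every probe that the platform annotation gives to one of these symbols was taken, which made 13 probes for 10 of the 18639 genes on the array. The RNA came from HT29, an established human colorectal cancer cell line, kept for 24 h in medium with the solvent DMSO alone, or with 5 µM or 20 µM of a derivative of linderapyrone. All 3 cultures were grown in the same low-glucose medium with fetal bovine serum, penicillin and streptomycin, and each group is 1 array from 1 culture. The treatment labels and descriptions give the doses in µM and the titles in mM; µM is used here. No source used here gives the derivative's structure.

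Cells build fatty acids in the cytosol from citrate. ATP citrate lyase, encoded by ACLY, splits citrate into acetyl-CoA. Acetyl-CoA carboxylase, encoded by ACACA, turns acetyl-CoA into malonyl-CoA in the committed step, and fatty acid synthase, encoded by FASN, joins these units into palmitate. In the endoplasmic reticulum, elongases of the ELOVL family lengthen the chain and desaturases put double bonds into it. Much of the pathway is transcribed under the sterol regulatory element binding proteins (SREBPs), and SCD and SREBF1 are also known targets of the liver X receptors (LXRs). FASN is often abundant in colorectal tumours.

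Each group being a single array, nothing was tested, no p-value is given, and the spread between cultures is unknown. In such bulk RNA, fewer cells of a type and less RNA per cell cannot be told apart. Signal is the median brightness of a spot. A gene counted as detected when its signal passed the blank spots' mean plus 2 SD, a level of 82.5 on the DMSO array, 79.4 on the 5 µM array and 80.2 on the 20 µM array. Raw signals differ between arrays as a whole, with gene spot medians of 117, 107 and 110.3 across DMSO, 5 and 20 µM, so ratios were taken after background correction and quantile normalization. They are on the log2 scale, with an offset of 50 added to the corrected signal, which makes differences of dim genes smaller. From genes with 2 detected probes, the technical SD of a single log2 ratio was 0.11 for 5 µM against DMSO, 0.15 for 20 µM against DMSO and 0.12 for 20 against 5 µM. Over genes whose probes both passed 2 times the detection level these SDs were 0.14, 0.15 and 0.13. They compare 2 probes of a gene on the same 2 arrays. What both probes share, such as differences between cultures, labellings or hybridisations, is therefore not in them. Of 9 colon epithelium markers, all were detected on every array, with EPCAM at signals of 9660.1, 6213 and 7149 across DMSO, 5 and 20 µM, and CDX2, another colon marker, only just detected at 92.6, 85.3 and 87.3. Markers of other cell types were also partly detected on every array: 3 of 5 for adipocytes, 5 of 6 for hepatocytes, 3 of 5 for fibroblasts and 2 of 3 for blood cells. The highest DMSO signals were 179.6 for PLIN1, 1359 for SERPINA1, 231 for DCN and 146 for CD14. Their summed signals above blank, across DMSO, 5 and 20 µM, were 127, 112 and 135 for adipocytes, 1341, 986 and 1126 for hepatocytes, 249, 227 and 223 for fibroblasts and 74.8, 58.6 and 49.4 for blood cells. LEP, FABP4, ALB, COL1A1, COL1A2 and PTPRC stayed under the detection level throughout, and the part of these markers in the results was not tested.

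FADS1, FADS2 and FADS3 lie next to each other on chromosome 11, and FADS3 differed from its neighbours at 20 µM. The stretches before their starts are printed here to show the 3 genes side by side, with those of SCD and ELOVL1, the members farthest above DMSO at 5 µM. Each runs from 250 bases before to 50 bases after an annotated start (RefSeq, GRCh38.p14, 5′ to 3′ along the gene). Capitals mark the CCAAT box, read as CCAAT or, on the other strand, ATTGG.
FADS3, chr11:61891496-61891795, minus strand: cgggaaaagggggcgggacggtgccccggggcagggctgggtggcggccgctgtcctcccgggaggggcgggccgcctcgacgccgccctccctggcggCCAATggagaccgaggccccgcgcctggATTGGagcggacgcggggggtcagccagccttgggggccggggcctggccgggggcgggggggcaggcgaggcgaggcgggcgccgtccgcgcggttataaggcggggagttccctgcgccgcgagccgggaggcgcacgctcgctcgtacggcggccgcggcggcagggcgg
FADS2, chr11:61816154-61816453, plus strand: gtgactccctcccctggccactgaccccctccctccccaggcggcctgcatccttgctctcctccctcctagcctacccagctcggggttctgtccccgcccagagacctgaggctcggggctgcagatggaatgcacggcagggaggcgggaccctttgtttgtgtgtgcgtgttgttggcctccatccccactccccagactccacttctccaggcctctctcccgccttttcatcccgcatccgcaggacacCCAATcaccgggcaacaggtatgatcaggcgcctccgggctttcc
FADS1, chr11:61816954-61817253, minus strand: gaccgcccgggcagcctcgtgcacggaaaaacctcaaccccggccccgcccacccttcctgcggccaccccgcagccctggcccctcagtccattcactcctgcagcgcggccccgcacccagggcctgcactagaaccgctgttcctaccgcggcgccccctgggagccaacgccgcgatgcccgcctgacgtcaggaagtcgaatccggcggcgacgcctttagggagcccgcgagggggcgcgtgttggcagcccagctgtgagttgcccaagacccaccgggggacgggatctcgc
SCD, chr10:100346983-100347282, plus strand: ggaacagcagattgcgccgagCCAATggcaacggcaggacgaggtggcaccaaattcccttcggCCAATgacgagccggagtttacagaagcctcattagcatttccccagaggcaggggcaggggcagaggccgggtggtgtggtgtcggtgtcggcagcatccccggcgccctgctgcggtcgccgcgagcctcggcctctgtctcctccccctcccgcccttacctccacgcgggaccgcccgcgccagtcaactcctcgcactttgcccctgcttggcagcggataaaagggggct
ELOVL1, chr1:43367962-43368261, minus strand: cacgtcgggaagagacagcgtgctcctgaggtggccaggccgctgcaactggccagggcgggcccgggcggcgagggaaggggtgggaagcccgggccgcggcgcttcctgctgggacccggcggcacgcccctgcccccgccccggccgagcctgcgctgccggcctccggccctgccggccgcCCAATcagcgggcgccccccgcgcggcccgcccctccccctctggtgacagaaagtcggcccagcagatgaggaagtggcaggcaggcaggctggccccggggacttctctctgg

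The table of promoters gave 13 windows for 9 members, several of them for alternative starts, and FASN had none in it. The CCAAT box was found in 9 of these 13 windows, against 34.6% of all 35116 windows of the same length. Windows of alternative starts can overlap, and the pair of ACLY windows shares 229 bases with the same CCAAT and GC boxes, and the pair of FADS2 windows shares 99 bases. Counted by gene, 7 of 9 members had a CCAAT box in some window and 8 of 9 a GC box. No share by gene over all genes is given here, and a gene with several windows has more chances to match. These counts by gene therefore cannot be set against the shares of windows. FADS3 had 2 CCAAT boxes in its window and SCD had 2, the FADS2 window above had 1 and the FADS1 window had none. The other FADS2 window had 0 and that of ELOVL1 had 1. Both ACLY windows, the ELOVL5 window and 1 ACACA window also had 2, so 2 boxes were not particular to FADS3 and SCD. The core of the sterol regulatory element, TCACNCCAC, was found in 0 of the 13 windows, against 1.13% of all windows. The E-box CACGTG was found in 1, that of ELOVL5, against 7.26%. The GC box GGGCGG was in 10, against 45.0%. All motifs were searched on both strands, and 1 overlap between different motifs occurred in these windows. A match describes the letters only, and a window without a match says nothing about binding elsewhere.

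For 5 µM against DMSO, all 10 members could be compared. Of them 0 were higher by 2-fold or more and 0 were lower by 2-fold or more, against 0.0498% and 0.00622% of 16075 genes. Their median log2 ratio was 0.0094, against 0.0043 over all genes, and 6 members lay above 0 and 4 below. SCD and ELOVL1 were farthest from 0, both above DMSO, and the other 8 lay between -0.13 and 0.088. For 20 µM against DMSO, 9 members could be compared. FADS3 was the 1 member higher by 2-fold or more and 0 were lower by that much, against 0.442% and 0.324% of 16062 genes. The members' median was 0.0068, against 0.0071 over all genes, with 5 above 0 and 4 below. Between the doses, 20 over 5 µM, FADS3 was again the 1 of 9 members higher by 2-fold or more and 0 were lower by that much, against 0.131% and 0.0935% of 16036 genes, with a median of 0.011 against -0.0011. Of all genes, 52.0% lay above 0 at 5 µM and 52.8% at 20 µM against DMSO, and 49.5% for 20 over 5 µM. In each comparison the members lay on both sides of 0. The comparisons with DMSO share the DMSO array.

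The balance of higher and lower calls over all genes depends on the scaling. Quantile normalization gave 8 higher and 1 lower gene at 5 µM against DMSO, and median scaling gave 5 and 4. For 20 µM against DMSO the numbers were 71 and 52, and 52 and 74, and for 20 against 5 µM they were 21 and 15, and 36 and 11. Under median scaling, brighter genes had medians of -0.17 for 5 µM against DMSO and -0.080 for 20 µM against DMSO, against 0.0057 and 0.014 under quantile normalization. With it 8 of 10 members lay below 0 at 5 µM and 6 of 9 at 20 µM. Ratios near 0 therefore have no settled sign here.

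**Figure D1:**
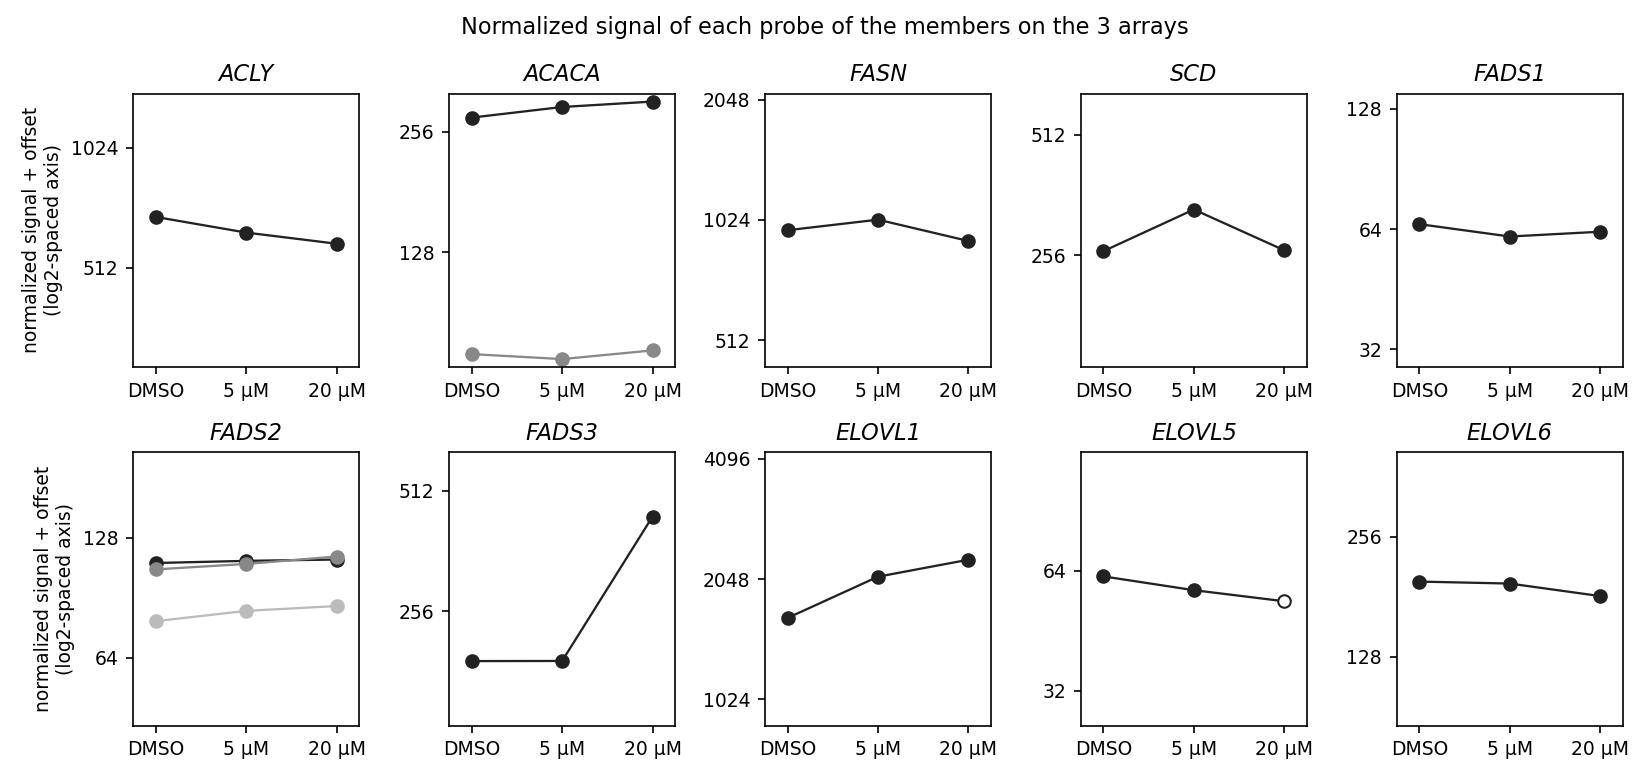
Normalized signal plus offset of every probe of the 10 members (vertical axis, log2-spaced, the same fold range in each panel) in DMSO, at 5 µM and at 20 µM (horizontal axis). Each point is 1 probe on 1 array, shades are different probes of a gene, and the open point is a probe under the detection level; FADS3 stands at 192, 192 and 441 at these doses, while most other lines run nearly flat.

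The 3 enzymes of synthesis itself all stayed within 2-fold of DMSO. The DMSO signal of ACLY was 801, with 583 at 5 µM and 611 at 20 µM. Its log2 ratios after normalization were -0.13 at 5 µM and -0.22 at 20 µM. These lie 1.17 and 1.53 technical SDs from 0. At 20 µM 12.1% of all genes lay lower.

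FASN had signals of 1110.2, 937 and 928 across DMSO, 5 and 20 µM. Its ratios were 0.088 at 5 µM and -0.090 at 20 µM, both inside 1 technical SD of 0, and -0.18 for 20 against 5 µM. The brighter ACACA probe had signals of 334, 293 and 327 across DMSO, 5 and 20 µM, with ratios of 0.088 at 5 µM and 0.13 at 20 µM, also inside 1 technical SD. A second ACACA probe was dim, at 99.7, 91.4 and 96.9 across DMSO, 5 and 20 µM, and gave ratios of -0.042 at 5 µM and 0.031 at 20 µM. In the authors' value table FASN read 489, 499 and 453 across DMSO, 5 and 20 µM, and the brighter ACACA probe 120.4, 125 and 133. The 3 values of each gene lay close together there too.

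The desaturases held both the largest and some of the smallest differences. SCD, the stearoyl-CoA desaturase that makes oleate from stearate, gave a DMSO signal of 316, with 326 at 5 µM and 287 at 20 µM. Normalized, with the offset, these became 262, 333 and 263 across DMSO, 5 and 20 µM. Only the 5 µM array stood apart: the log2 ratio was 0.35 at 5 µM, 0.0068 at 20 µM and -0.34 for 20 against 5 µM. The 5 µM ratio was 1.27-fold and 3.12 technical SDs from 0, or 2.42 with the SD of brighter probes, and 245 of 16075 genes lay higher. Among 6656 genes over 2 times the detection level on both arrays, 96.8% lay lower, against 98.5% of all genes. Median scaling put it at 0.18 and the authors' value table, where SCD read 111.9, 144 and 111.3 across DMSO, 5 and 20 µM, at 0.37. With the scanner's background column it was 0.015. SCD has a single probe on this array, so no other probe could be set beside it.

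FADS1 and FADS2 encode the front-end desaturases that make polyunsaturated fatty acids. FADS1 had signals of 93.9, 84.3 and 87.5 across DMSO, 5 and 20 µM, little above the detection level on each array. With the offset, its log2 ratios were -0.10 at 5 µM and -0.063 at 20 µM. In the authors' value table, whose scale starts near the blank level, FADS1 read 6.56, 4.1 and 5.2 across DMSO, 5 and 20 µM, which makes ratios of -0.68 and -0.34. Signals this close to blank thus gave ratios that depend on the scale.

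FADS2 had 3 probes. The brightest had signals of 144, 129.8 and 136 across DMSO, 5 and 20 µM, the next 139.7, 128 and 138, and the dimmest 109, 105 and 110.4. At 5 µM they gave log2 ratios of 0.018, 0.045 and 0.086, and at 20 µM 0.029, 0.11 and 0.13. All 6 ratios were small and positive, and all lay within 1 technical SD of 0.

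FADS3 belongs to the same family as FADS1 and FADS2 but is known to desaturate the sphingoid base of ceramides. Its DMSO signal was 238, with 201 at 5 µM and 462 at 20 µM. Normalized, they were 192, 192 and 441 across DMSO, 5 and 20 µM. DMSO and 5 µM were level and 20 µM stood alone above both. The log2 ratio was 0.0010 at 5 µM, 1.20 at 20 µM, or 2.30-fold, and 1.20 for 20 against 5 µM. At 20 µM against DMSO this was 8.27 technical SDs, or 8.14 with the SD of brighter probes, and 38 of 16062 genes lay higher. Those SDs hold no spread between cultures or hybridisations. Between the doses only 4 of 16036 genes lay higher. The authors' value table, at 75.0, 71.7 and 204.9 across DMSO, 5 and 20 µM, gave 1.45 for 20 µM against DMSO and 1.51 between the doses. Only with the scanner's own background column did FADS3 miss 2-fold, at 0.91 and 0.98. FADS3 too has a single probe.

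**Figure D2:**
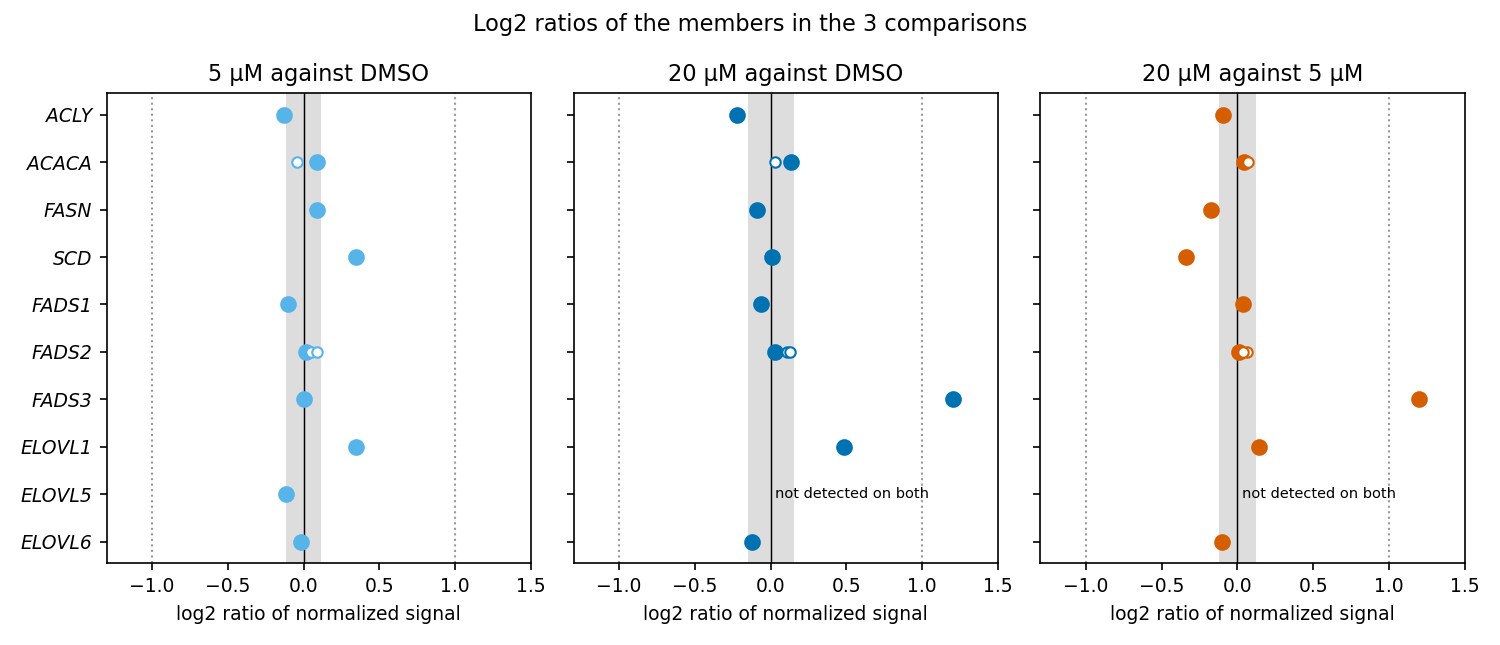
Log2 ratio of each probe (horizontal axis) of each member (vertical axis) for 5 µM over DMSO, 20 µM over DMSO and 20 over 5 µM. Filled points are the probe that stands for the gene, open points its other probes, the grey band is 1 technical SD to each side and dotted lines mark 2-fold; FADS3 at 1.20 is the only point beyond a dotted line.

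The genes on either side of the FADS cluster, looked up after the values of FADS3 had been seen, had ratios nearer to 0. The offset makes differences of dim genes smaller, so these ratios do not show that the difference was confined to FADS3. Within 100000 bases of the cluster, FEN1, a flap endonuclease of DNA replication, had a log2 ratio of -0.15 at 20 µM against DMSO, and TMEM258 had 0, with signals of 3648 at 20 µM and 4131 in DMSO. RAB3IL1, the next gene after FADS3, was dim, with a DMSO signal of 86.4, then 87.6 at 5 µM and 96.8 at 20 µM. Its ratio was 0.30 at 20 µM. The blank spots had means of 80.2, 77.4 and 77.8 across DMSO, 5 and 20 µM, so RAB3IL1 stood farthest above blank at 20 µM. DAGLA and MYRF, also dim, stood at -0.052 and 0.029. BEST1 was under the detection level in DMSO, with a signal of 82.4, and over it at 81.4 at 5 µM and 85.2 at 20 µM. FTH1 was not analysed here.

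The 5 genes whose pair of ratios to DMSO lay nearest to that of FADS3, among 15911 other genes detected on all 3 arrays, were IFI44L, PKIB, MX2, NUPR1 and STEAP1. Likeness was the straight-line distance between the ratios at 5 and 20 µM, and it was 0.045, 0.069, 0.082, 0.18 and 0.18 log2 units. IFI44L and MX2 are interferon-stimulated genes, PKIB encodes an inhibitor of protein kinase A, NUPR1 a stress-induced nuclear protein and STEAP1 a membrane protein of the metalloreductase family. Against DMSO they stood at 0.046, 0.038, -0.076, 0.034 and 0.18 at 5 µM, and at 20 µM at 1.19, 1.14, 1.17, 1.02 and 1.22. The likeness rests on 3 arrays and 1 probe per gene.

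The elongases differed among themselves. ELOVL1, which lengthens saturated chains to the very long ones used in sphingolipids, gave a DMSO signal of 1913, with 1867 at 5 µM and 2299 at 20 µM. Normalized, these were 1637, 2077 and 2290.2 across DMSO, 5 and 20 µM. The log2 ratio was 0.34 at 5 µM and 0.48 at 20 µM, or 1.27-fold and 1.40-fold, which is 3.10 and 3.33 technical SDs, or 2.40 and 3.28 with the SD of brighter probes. At 20 µM 465 of 16062 genes lay higher. Among 6753 genes over 2 times the detection level on both arrays, 94.1% lay lower, against 97.1% of all genes. Median scaling gave ratios of 0.090 and 0.34, and the scanner's background column 0.052 and 0.026. The authors' value table, at 869, 1038.5 and 1183 across DMSO, 5 and 20 µM, gave 0.26 and 0.44. Neither dose reached 2-fold.

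ELOVL6, which extends palmitate to stearate, had signals of 244, 204 and 203 across DMSO, 5 and 20 µM. Its ratios were -0.016 at 5 µM and -0.12 at 20 µM, inside 1 technical SD. ELOVL5, which acts on polyunsaturated chains, was at the limit of the array, with a DMSO signal of 89.4, then 80.6 at 5 µM and 78.0 at 20 µM, the last under the detection level. Its ratio at 5 µM was -0.11. Set against the lowest detected level at 20 µM, its normalized signal with the offset was at least 1.11-fold lower than in DMSO. On the log2 scale that level was 5.80, against 5.95 in DMSO, about as far apart as the technical SD of 0.15. A fall can therefore not be told from technical spread. In the authors' value table ELOVL5 read 1.9 at 5 µM, against 4.46 in DMSO, a ratio of -1.23, with no value at 20 µM.

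**Figure D3:**
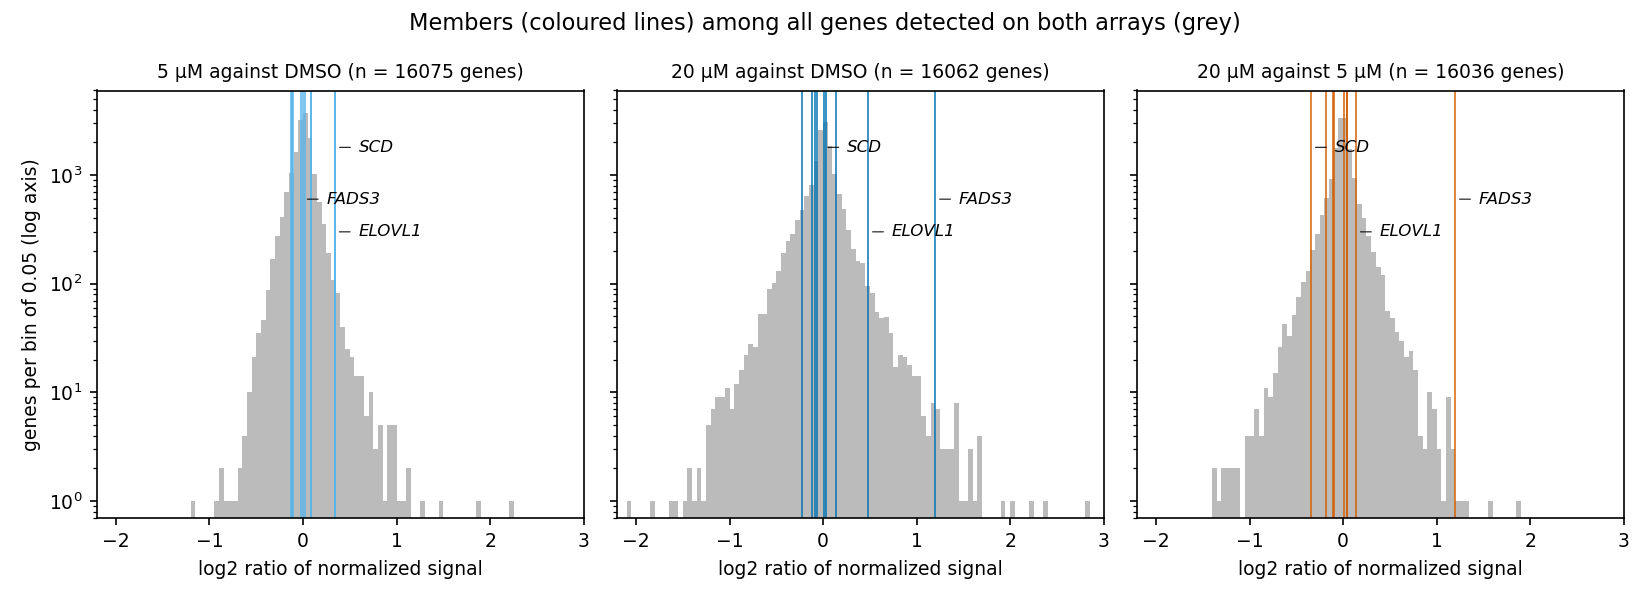
Number of genes (vertical axis, log scale) per bin of log2 ratio (horizontal axis) for 5 µM over DMSO, 20 µM over DMSO and 20 over 5 µM, over all genes detected on both arrays. Coloured lines are the members; most fall in the centre, while FADS3 lies in the right tail in the panels of 20 µM, with 38 genes above it against DMSO and 4 between the doses.

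The members work with other enzymes and regulators, which were taken as 10 lists of 76 genes. A probe was named for 66 of them, and the other 10 were not analysed here. At 5 µM against DMSO 0 of 63 compared genes were 2-fold apart. Of 61 compared at 20 µM, 0 were, whether set over DMSO or over 5 µM. In the authors' value table some passed 2-fold: ABCA1 at 1.15 and ABCG1 at 1.56 for 5 µM against DMSO, LIPT2 at -1.07 for 20 µM against DMSO, and ABCG1 at -2.21 between the doses. The medians over all genes were 0.0043 at 5 µM and 0.0071 at 20 µM against DMSO. Of all genes, 47.9% lay below 0 at 5 µM and 47.1% at 20 µM, the shares beside which the counts below stand. Under median scaling the list medians at 20 µM kept their sign except that of the acyl-CoA synthetases, at -0.076. At 5 µM several did not: carbon and NADPH supply stood at -0.20, the LXR and ChREBP list at -0.0058, other desaturases and elongases at 0.016 and control of acetyl-CoA carboxylase at 0.0097. Brighter genes as a whole stood at -0.17 there. Ratios below are from quantile normalization.

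Of the 4 detected partners of the elongation cycle, the enzymes that complete each round begun by an ELOVL protein, all lay below 0 at 20 µM against DMSO, with a median of -0.30. Of all genes, 47.1% lay below 0 there. TECR, the reductase of the last step, stood at -0.47 and the dehydratase gene HACD3 at -0.41, with its other probe at -0.34. The reductase gene HSD17B12 stood at -0.19 and HACD2 at -0.15. At 5 µM the median was -0.069 with 3 of 4 below 0, but -0.28 under median scaling and -0.15 in the authors' value table, with all 4 below 0 in each. All 4 were below DMSO at 20 µM under median scaling and in the authors' value table too. Under median scaling, though, brighter genes as a whole had medians of -0.17 at 5 µM and -0.080 at 20 µM. All 4 partners are among the brighter genes, so their signs under that scaling add little. Among the member elongases, which start the same cycle, ELOVL1 was above DMSO there and ELOVL6 below it. The ratios of ELOVL6 were -0.12 under quantile normalization, -0.212 under median scaling and -0.215 in the authors' value table. ELOVL5 could not be compared.

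Desaturases draw electrons through cytochrome b5. The median at 20 µM of 6 genes of cytochromes b5 and their reductases was -0.12. Of these 6, 5 lay below 0, against 47.1% of all genes. Among them were CYB5B at -0.38, CYB5A at -0.30 and CYB5R3 at -0.13, while CYB5R4 stood at 0.12. Which of the 6 serve the desaturases in these cells was not tested. The median of the 6 genes at 5 µM was -0.0083. Among 7 detected other desaturases and elongases the median at 20 µM was 0.031, with members at both ends. ELOVL7, an elongase of long saturated chains, stood at 0.51 and DEGS1, the dihydroceramide desaturase, at 0.47, while its relative DEGS2 stood at -0.46 and SCD5 at 0.038. At 5 µM these 4 stood at 0.057, -0.051, -0.18 and 0.023.

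Genes that supply carbon and NADPH had a median of 0.12 at 20 µM and 0.0016 at 5 µM. At 20 µM 5 of 7 lay above 0, against 52.8% of all genes. PGD, of the pentose phosphate pathway, stood at 0.56, IDH1 at 0.39 and malic enzyme, ME1, at 0.23, while the citrate carrier gene SLC25A1 stood at -0.30. Another probe of SLC25A1 gave 0.083. Acyl-CoA synthetases and the acyl-CoA binding protein had a median of 0.018 over 4 genes, but a wide range: ACSL5 stood at 0.40 and DBI, which carries acyl-CoA, at -0.58, with ACSL4 at 0.023 and ACSL1 at 0.013.

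**Figure D4:**
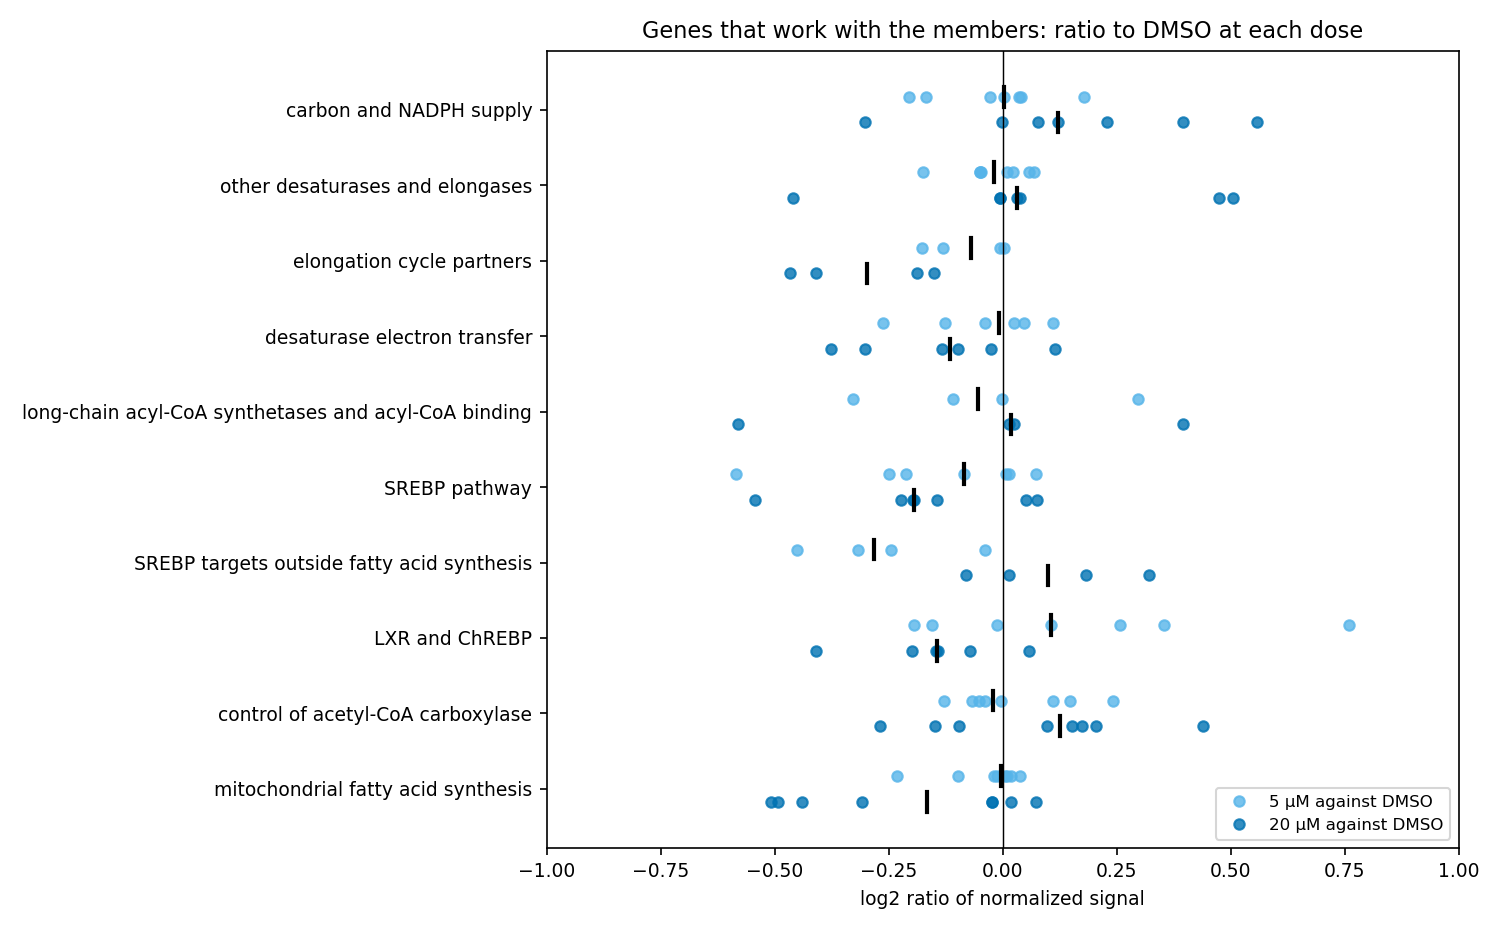
Log2 ratios to DMSO (horizontal axis) of the genes of each related list (vertical axis) at 5 µM (light points) and 20 µM (dark points), with black bars for the medians. No gene reaches 2-fold under quantile normalization, and the medians of the SREBP targets and of the LXR and ChREBP list lie on opposite sides of 0 at each dose, except that under median scaling the LXR and ChREBP list at 5 µM lies at -0.0058.

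The SREBP pathway list had a median of -0.086 at 5 µM and -0.20 at 20 µM, and of 0.015 for 20 against 5 µM. At 20 µM 5 of 7 lay below 0, against 47.1% of all genes. Under median scaling the medians were -0.30 at 5 µM and -0.26 at 20 µM, where brighter genes as a whole had -0.17 and -0.080. INSIG1, itself an SREBP target, stood at -0.54 at 20 µM and -0.58 at 5 µM, SREBF1 at -0.22 and 0.013, MBTPS2, the site-2 protease gene, at -0.20 and -0.21, and SREBF2 at -0.20 and -0.25. SREBF1 was dim, with a DMSO signal of 110.3, then 102 at 5 µM and 93.4 at 20 µM. Of the SREBP targets outside fatty acid synthesis, 4 were detected. At 20 µM 1 of the 4 lay below 0, with a median of 0.099, and at 5 µM all 4 did, with a median of -0.28, though PNPLA3 stood at 0.029 under median scaling. At 5 µM squalene epoxidase, SQLE, stood at -0.45, HMGCS1 at -0.32, the dim LPIN1 at -0.25 and the dim PNPLA3 at -0.039. At 20 µM these 4 stood at 0.32, 0.18, 0.014 and -0.080, in the same gene order.

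The LXR and ChREBP list had a median of 0.11 over 7 genes at 5 µM and -0.14 over 6 genes at 20 µM. ABCG1, a sterol exporter and LXR target, had a DMSO signal of 112, then 154.5 at 5 µM and 95.9 at 20 µM, with log2 ratios of 0.76 and -0.20. MYLIP, another LXR target, had signals of 182, 192 and 152 across DMSO, 5 and 20 µM, with ratios of 0.35 and -0.14. ABCA1, named after its values were seen, was dim, at 97.5 at 5 µM, against 91.1 in DMSO, a ratio of 0.26, and under the detection level at 20 µM. In these 3 genes the 5 µM array was the highest of the 3, as it was for SCD. The dim SREBF1, also an LXR target, did not stand apart at 5 µM. Its ratio there was 0.013, level with DMSO after normalization, though its raw signal was highest in DMSO. Of the other genes of the list compared at 5 µM, NR1H3 stood at 0.11, MLXIPL at -0.013, RXRA at -0.15 and TXNIP at -0.19. Whether LXR plays a part in these values was not tested. The receptor genes RXRA and NR1H3 stood at -0.41 and -0.15 at 20 µM, and another NR1H3 probe gave 0.11.

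Genes that control acetyl-CoA carboxylase, mostly AMPK subunits, had a median of 0.12 at 20 µM over 8 genes and -0.021 at 5 µM. The regulatory subunit gene PRKAG2 stood at 0.44, PRKAB2 at 0.21, PRKAG1 at 0.17 and the kinase gene STK11 at -0.27. The separate fatty acid synthesis of mitochondria had a median of -0.17 at 20 µM, with 6 of 8 genes below 0, against 47.1% of all genes. At 5 µM the median was -0.0041 with 4 of 8 below 0, but -0.13 with 8 of 8 below 0 under median scaling and -0.072 with 7 of 8 in the authors' value table. Brighter genes as a whole stood lower than this list under median scaling, at -0.17. In the authors' value table the median over all genes was -0.030. These counts therefore do not show a fall of this list. NDUFAB1, the mitochondrial acyl carrier protein, stood at -0.51, LIPT2 at -0.49, LIAS at -0.44 and CBR4 at -0.31. LIAS and LIPT2 act in making lipoic acid. For LIPT2 another probe gave -0.42.

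**Figure D5:**
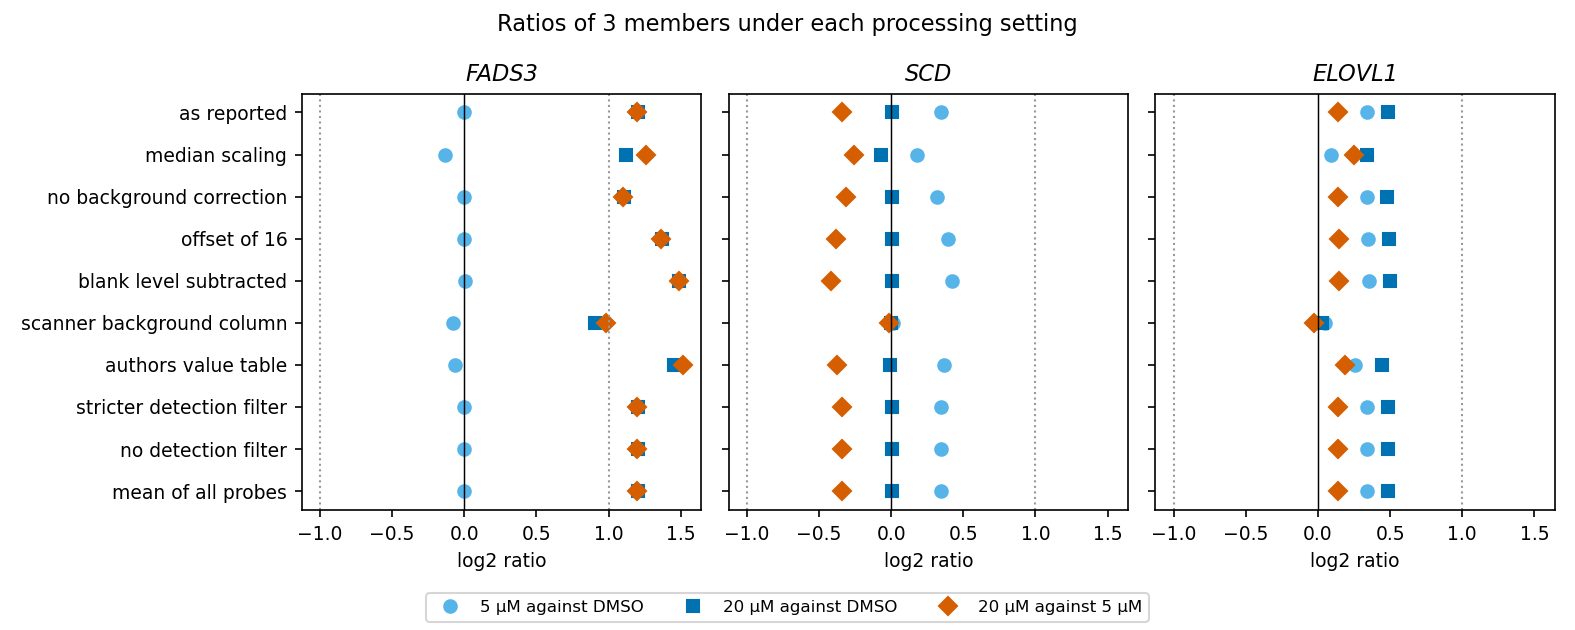
Log2 ratios (horizontal axis) of FADS3, SCD and ELOVL1 under each way of processing (vertical axis), with circles for 5 µM over DMSO, squares for 20 µM over DMSO and diamonds for 20 over 5 µM. FADS3 stays beyond 2-fold (dotted lines) in the comparisons of 20 µM except under the scanner background column, where the ratios of SCD and ELOVL1 also come close to 0.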

How the data were processed

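Total RNA of 3 HT29 cultures was labelled with Cy5 and hybridised to Toray arrays, per the labels. The deposited scanner files hold an intensity per spot, its median brightness at 635 nm with no background taken off, per the file headers, which also give straight lines between 3 gains. The authors' value table holds an intensity per probe with a median of 25 on each array. No source used here names the extraction software.

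Spot signals were corrected with normexp (offset 50, fitted on all spots) in limma 3.58.1 under R 4.3.3 and quantile normalized over 24460 gene probes; this step was tested on simulated data. Tables and plots used Python 3.11.15, numpy 2.4.6, pandas 2.3.3 and matplotlib 3.10.9. The scanner's background column rose with the spot's own signal (Spearman correlation across spots 0.967 in DMSO) and served only as an alternative. Detection dropped 5% of the 480 blank and negative control spots at each end. The probe detected on most arrays, then the brightest, stood for a gene; 21707 probes had 1 symbol, 0 several and 2753 none. With 1 array per group, at least 2-fold was the threshold and no test was run.

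All members were named, with up to 4 genes per related list with the largest ratios at 20 µM against DMSO and the 5 genes nearest in pattern to any member 2-fold apart. The members and lists were chosen with earlier results of these data known. Sequences came from RefSeq; protein sequences were not used here.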

Additional observations from a re-analysis of the deposited data

How the results depend on the processing

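The medians of the members moved by less than the technical SD under all 9 alternatives in all 3 comparisons. At 20 µM, over DMSO and over 5 µM, FADS3 alone (1 member) reached 2-fold under every alternative but the scanner background column, which left 0. At 5 µM against DMSO, 1 member, the barely detected ELOVL5, was at least 2-fold lower after subtraction of the blank level and in the authors' value table. Over all genes, 9 were 2-fold apart for 5 µM against DMSO, against 21 with an offset of 16, 109 after blank subtraction, 660 with the background column and 96 in the authors' value table. For 20 µM against DMSO, 123 became 208, 491, 896 and 472 under the same settings, and for 20 against 5 µM, 36 became 70, 238, 811 and 234. Of 28 ratios of single members, 7 moved by more than the technical SD under median scaling and 12 under the background column. No paired analysis was possible because each group has 1 array. FADS1, FADS2 and ELOVL5 lay within 2 times the detection level in DMSO, where signal over background limits what a ratio can show. The related lists were also set under median scaling and in the authors' value table, a step chosen after seeing the data.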
